A study of Homo sapiens with 9 samples.

Results

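Metallothioneins are small cysteine-rich proteins that hold zinc, copper and cadmium ions, and their transcripts respond to the free zinc of the cell. The genes described here are 6 of the 60675 genes in a count table of the human astrocytoma line SW1783. They are the metallothionein genes MT1E, MT1X, MT2A and MT1F, SLC30A1, which encodes the zinc exporter ZnT1, and MTF1, which encodes the zinc-sensing transcription factor of the pathway. They were taken by name, as the rows whose Ensembl identifiers carry these symbols, and all 6 passed the filter on low counts. The cells had been exposed for 24 h to 70% ethanol extracts of Poria Cocos at 20, 100 or 500 µg/mL or of Atractylodis Rhizoma at 20, 100 or 500 µg/mL, or to the DMSO vehicle. The medium of all groups was L-15 with 10% serum. Each dose of each extract had 1 library, and the vehicle had 3. The batch letter was the same for all 9 libraries. Since no label tells whether the vehicle replicates were separate cultures, their spread may be technical. The labels give the vehicle as 0.1% DMSO and the series design gives 2%, which was not settled.

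In this pathway zinc binds MTF1, which then moves to metal response elements in the promoters of metallothionein genes and of SLC30A1. Metallothioneins buffer the incoming metal, and ZnT1 carries zinc out across the plasma membrane. Astrocytes are known as the main source of the MT1 and MT2 isoforms in brain. Metallothionein genes also answer to glucocorticoids and to oxidants, so lists of genes for those responses, for zinc and copper transport and for other cell types were examined beside the 6 genes.

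The 4 metallothionein genes lie in 1 cluster on chromosome 16 (GRCh38, GENCODE 29, all on the plus strand). MT2A (ENSG00000125148) spans chr16:56608199-56609497, MT1E (ENSG00000169715) chr16:56625475-56627112, MT1F (ENSG00000198417) chr16:56657694-56660698 and MT1X (ENSG00000187193) chr16:56682424-56684196. SLC30A1 (ENSG00000170385) lies at chr1:211571568-211578742 and MTF1 (ENSG00000188786) at chr1:37809567-37859620, both on the minus strand. All are protein-coding genes. To show where the pathway's element stands in these genes, the 250 bases before the RefSeq transcript start (GRCh38.p14) were searched on both strands for the metal response element core, TGCACNC or TGCGCNC, and for the antioxidant response element core, TGACNNNGC. Capitals mark the matches to either core on either strand. The RefSeq table gave this window for MT1X, MT2A, SLC30A1 and MTF1. The windows stand at chr16:56608334-56608583 (plus strand) for MT2A and chr16:56682220-56682469 (plus strand) for MT1X. Those on the minus strand stand at chr1:211579162-211579411 for SLC30A1 and chr1:37859593-37859842 for MTF1. The windows of MT1X, MT2A and MTF1 overlap the gene as GENCODE 29 draws it, because its starts differ from RefSeq's.
MT2A: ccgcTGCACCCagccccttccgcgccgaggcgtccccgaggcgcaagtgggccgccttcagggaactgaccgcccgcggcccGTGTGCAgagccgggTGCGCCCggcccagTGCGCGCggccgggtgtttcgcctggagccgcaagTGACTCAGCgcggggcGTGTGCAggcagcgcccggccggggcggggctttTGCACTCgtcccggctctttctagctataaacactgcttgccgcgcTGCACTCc
MT1X: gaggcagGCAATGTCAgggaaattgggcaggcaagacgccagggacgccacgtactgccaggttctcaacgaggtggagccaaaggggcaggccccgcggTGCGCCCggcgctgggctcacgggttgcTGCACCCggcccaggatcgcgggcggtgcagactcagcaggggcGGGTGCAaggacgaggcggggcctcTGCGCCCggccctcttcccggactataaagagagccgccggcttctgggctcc
SLC30A1: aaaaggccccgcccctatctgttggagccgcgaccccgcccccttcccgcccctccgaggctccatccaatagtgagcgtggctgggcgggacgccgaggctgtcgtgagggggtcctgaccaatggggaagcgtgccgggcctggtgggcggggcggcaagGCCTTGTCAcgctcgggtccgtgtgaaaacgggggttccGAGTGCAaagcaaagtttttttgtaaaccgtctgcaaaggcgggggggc
MT2A held 7 matches to the metal response core, MT1X 4 and SLC30A1 1, while the MTF1 window held 0. Of 27305 RefSeq promoter windows of this length, 24.7% held at least 1 match, 0.366% at least 4 and 0.033% at least 7. The antioxidant core had 1 match each in MT2A, MT1X and SLC30A1 and 0 in MTF1, and at least 1 match stood in 11.0% of all windows. No antioxidant match overlapped a metal response match. A match describes the letters of the window and was not measured as a binding site.

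**Figure D1:**
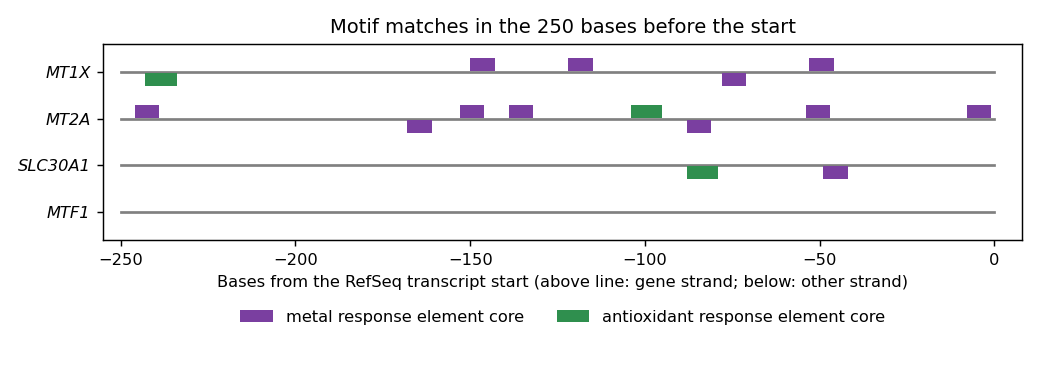
Matches to the metal response element core (purple) and the antioxidant response element core (green) along the 250 bases before the RefSeq start of MT1X, MT2A, SLC30A1 and MTF1, with matches on the gene's strand above the line and on the other strand below it. MT2A holds 7 metal response matches and MT1X 4, SLC30A1 holds 1 near its start, and MTF1 holds 0 of either core.

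Library totals ran from 40269665 to 48905536 counts, so counting error was small for all of these genes except MT1F, and the number of libraries limits the precision elsewhere. Of the markers of astrocytes, the labelled origin of the line, GJA1 (256 CPM in vehicle cells), SOX9 (83.8 CPM) and SLC1A3 (21.4 CPM) were present, with CPM the count relative to the TMM-scaled library size, whereas GFAP, AQP4, ALDH1L1 and S100B averaged at most 0.108 CPM. The mesenchymal genes VIM (5983 CPM), FN1 (5683 CPM) and COL1A1 (4250 CPM) were abundant. The chi-square per degree of freedom was 13.98 to 31.41 between treated and vehicle libraries and 2.46 to 3.44 among the vehicle libraries, which is above the value near 1 that counting error alone gives. The change from vehicle of each treated library went down with the GC content of the gene, with Spearman correlations across 11536 genes of -0.159 to -0.518 (genes are not independent replicates). The correlation was -0.159 at 20 µg/mL Atractylodis and -0.415 to -0.518 in the other treated libraries. For MT1E, MT1X, MT2A and MT1F, 68.5%, 69.2%, 69.7% and 82.2% of genes had the same GC content or less. In these bulk samples, fewer cells of a kind and less RNA per cell cannot be told apart.

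Since paralogs can share reads, the transcripts were compared before the genes were read singly. No stretch of 100 bases, the read length, was shared between any pair of the 4 metallothionein genes. The deposited values of all 6 genes were exactly whole numbers in all 9 libraries, tested with no tolerance before any rounding. Whether the values of other genes were whole too was not examined. The whole numbers therefore cannot tell reads assigned to single genes from values rounded before deposit. Shorter stretches of 31 bases were shared most between MT2A and MT1X, with 54 in common, or 4.0% of those of MT2A and 3.0% of those of MT1X. MT1X shares 11.3% of its 100-base stretches with AC026461.1, a gene that overlaps it on the same strand and had 0 counts in all 9 libraries. The summed metallothionein level is given beside the single genes.

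Per kilobase of the longest transcript, MT2A was by far the most abundant of the 6 in vehicle cells, at 521 ± 48.4 CPM per kilobase (SD, n = 3). MT1E followed at 33.4 ± 3.44 CPM per kilobase, SLC30A1 at 13.1 ± 0.241, MT1X at 11.1 ± 0.728, MTF1 at 4.39 ± 0.210 and MT1F at 0.364 ± 0.00756 CPM per kilobase (SD, n = 3 each). The vehicle libraries of each neighbouring pair in this order did not overlap. The order rests on the longest annotated transcript, of 729 bases for MT1E, 5474 for SLC30A1 and 1727 for MT1X. Which transcripts were expressed was not examined, and a shorter one would raise the level per kilobase. Over all 9 libraries the level per kilobase ran from 346 to 577 for MT2A, from 13.1 to 37.1 for MT1E, from 12.9 to 14.9 for SLC30A1, from 6.36 to 13.3 for MT1X, from 3.96 to 4.63 for MTF1 and from 0.253 to 0.685 for MT1F. The lowest library of MT1E and the highest of MT1X thus reached the level of SLC30A1. The sum of the 4 metallothionein genes was mostly MT2A, which made up between 90.1% and 93.7% of it in every library.

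The first question the design poses is whether expression followed the dose of each extract. In the Poria series, MT1E, MT1X and MT2A fell as the dose went up, MT1E the most steeply. No member rose with Poria dose, and neither the exporter SLC30A1 nor the sensor MTF1 passed the test. In the Atractylodis series MT2A fell and SLC30A1 rose slightly, while MT1E and MT1X were called lower than vehicle at the top dose. Slopes are log2 changes per dose step, counted from vehicle through 20 and 100 to 500 µg/mL, from edgeR's quasi-likelihood test over all 9 libraries, with Benjamini-Hochberg adjustment over 17397 genes and a threshold of 0.05. Both series share the same 3 vehicle libraries. Values over the rising doses are given in the order 20, 100 and 500 µg/mL.

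**Figure D2:**
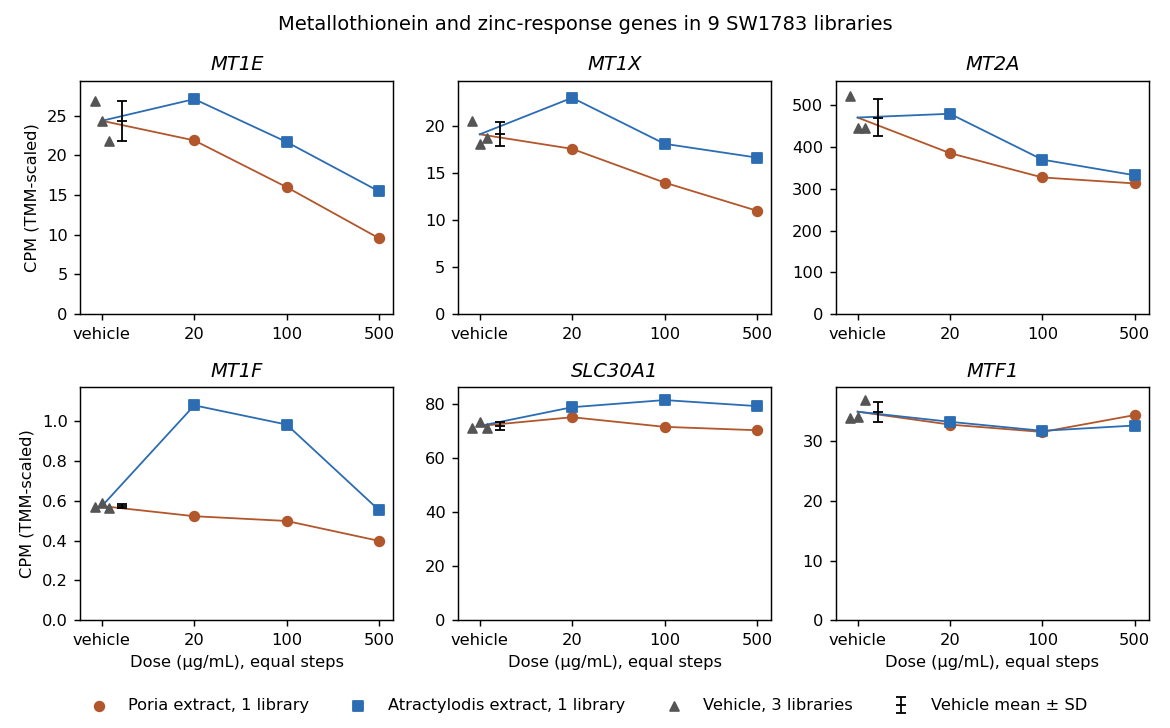
CPM of each gene in every library against dose, with the 3 vehicle libraries (grey triangles, mean and SD beside them) at the low end and 1 library per dose of Poria (circles) and Atractylodis (squares); every vertical axis starts at 0 and has its own range. MT1E at 500 µg/mL Poria stands at 9.54 CPM, below the 3 vehicle libraries at 21.8 to 26.9 CPM, while SLC30A1 ranges from 70.4 to 81.6 CPM over the 9 libraries.

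MT1E, an MT1 isoform of the cluster, was at 26.9, 24.4 and 21.8 CPM in the vehicle libraries and at 21.9, 15.98 and 9.54 CPM over the rising Poria doses. The library at 20 µg/mL lay within the vehicle range and the higher doses lay below it. The Poria slope was -0.43 ± 0.07 (SE), with an adjusted p of 0.0044 by edgeR. Without the library at 500 µg/mL it was -0.33, with an adjusted p of 0.078. At 20, 100 and 500 µg/mL Atractylodis, MT1E was at 27.1, 21.7 and 15.5 CPM, with only the top dose well below the vehicle range. The Atractylodis slope of -0.20 ± 0.067 (95% interval -0.36 to -0.04) had an adjusted p of 0.077 by edgeR and was not called.

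MT1X, another MT1 isoform, was at 20.5, 18.1 and 18.8 CPM in the vehicle libraries and at 17.6, 13.99 and 11.0 CPM over the rising Poria doses. All 3 Poria libraries were below all 3 vehicle libraries. The Poria slope was -0.28 ± 0.04 (SE; adjusted p = 0.00043 by edgeR). Over the rising Atractylodis doses it was at 23.0, 18.1 and 16.7 CPM, above the vehicle range at the low dose, within it at the middle dose and below it at the top dose. The Atractylodis slope was -0.067 ± 0.039 (adjusted p = 0.25 by edgeR).

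MT2A, the major human isoform, was at 521, 446 and 446 CPM in the vehicle libraries and at 386, 327 and 313 CPM over the rising Poria doses. All 3 Poria libraries were below the vehicle libraries, of which replicate 1 stood apart from the others. The Poria slope was -0.23 ± 0.035 (SE; adjusted p = 0.0019 by edgeR). Over the rising Atractylodis doses it was at 480, 370 and 333 CPM, within the vehicle range at the low dose and below it at the others. The Atractylodis slope was -0.16 ± 0.036 (adjusted p = 0.013 by edgeR), and -0.13 with an adjusted p of 0.21 without the library at 500 µg/mL.

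MT1F, a scarce isoform here, had 24, 23 and 23 counts in the vehicle libraries, 23, 22 and 20 counts at 20, 100 and 500 µg/mL Poria, and 48, 42 and 24 counts at 20, 100 and 500 µg/mL Atractylodis. Relative to library size all 3 Poria libraries lay below the vehicle range, at 0.522, 0.498 and 0.398 CPM over the rising doses, against 0.564 to 0.586 CPM in the vehicle libraries. The Atractylodis libraries at 20 and 100 µg/mL lay above that range, at 1.08 and 0.981 CPM, and the one at 500 µg/mL lay below it, at 0.552 CPM. The Poria slope of -0.25 ± 0.131 (adjusted p = 0.19) and the Atractylodis slope of 0.10 ± 0.124 (adjusted p = 0.62) were not called by edgeR. Counts this low leave a wide counting error.

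SLC30A1, the exporter, was at 71.1, 73.5 and 71.3 CPM in the vehicle libraries and at 75.2, 71.7 and 70.4 CPM over the rising Poria doses, on both sides of the vehicle range. Its Poria slope was -0.015 ± 0.018 (95% interval -0.05 to 0.02; adjusted p = 0.59 by edgeR). Over the rising Atractylodis doses it was at 78.9, 81.6 and 79.3 CPM, above all 3 vehicle libraries at each dose and with no order among the doses. The Atractylodis slope was 0.054 ± 0.018 (adjusted p = 0.044 by edgeR). It was not called without any 1 of the vehicle libraries, the 100 µg/mL library of either extract or the 500 µg/mL Atractylodis library (0.045 to 0.088, with adjusted p-values of 0.056 to 0.14). The longest transcript of SLC30A1 has a GC content of 38.0%, which 8.62% of genes have or fall below, beside a median of 47.7%. After a correction for the GC content and length of the transcripts the Atractylodis slope was 0.011 (adjusted p = 0.66) and the Poria slope was -0.056 (adjusted p = 0.021), so that the Poria slope was then called lower and the Atractylodis slope was not called.

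MTF1, the sensor, was at 33.9, 34.1 and 36.9 CPM in the vehicle libraries, at 32.8, 31.6 and 34.4 CPM over the rising Poria doses, and at 33.3, 31.8 and 32.7 CPM over the rising Atractylodis doses. All but the top Poria dose lay below the vehicle range. Neither slope was called by edgeR, at -0.021 ± 0.023 (adjusted p = 0.56) for Poria and -0.035 ± 0.023 (adjusted p = 0.31) for Atractylodis.

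By count, 3 of the 6 genes were called lower and 0 higher with Poria dose, where 12.4% of all genes tested were called lower and 9.96% higher (22.4% in either direction). With Atractylodis dose 1 was lower and 1 higher, where 11.3% of all genes were lower and 9.17% higher (20.5% in either direction), a share near this background. The median slope of the 6 genes was -0.24 for Poria and -0.05 for Atractylodis, beside medians over all genes of 0.001 and 0.003. The split of all calls moved with the scaling. It was 1732 higher and 2159 lower for Poria, and 3220 higher and 1123 lower with library totals alone. For Atractylodis it was 1596 higher and 1973 lower, and 2752 higher and 1107 lower with library totals alone. The calls of MT1X and MT2A with Poria dose held in all 15 alternative fits over dose steps and that of MT1E in 14 of 15, the exception being the fit without the top dose. These fits include the correction for GC content and length. Over them the Poria slopes ran from -0.473 to -0.325 for MT1E, -0.303 to -0.244 for MT1X and -0.285 to -0.18 for MT2A. Over the dose itself in place of the step, MT1E and MT1X were called lower and MT2A was not (adjusted p = 0.18).

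**Figure D3:**
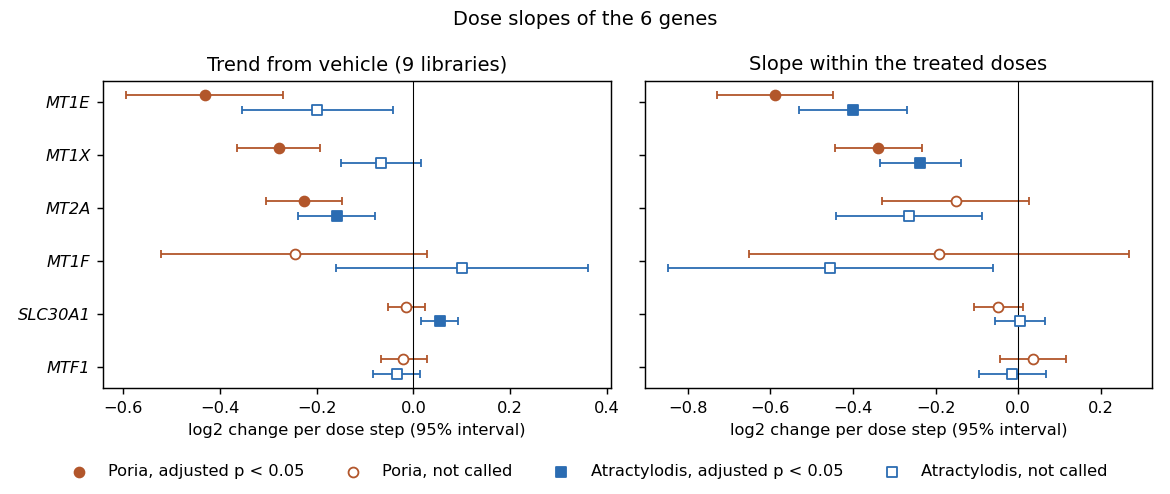
Log2 change per dose step of the 6 genes with 95% intervals for Poria (circles) and Atractylodis (squares). The left panel shows the slope from vehicle. In the right panel only the 3 treated doses of each extract set the slope, while the vehicle libraries add to the error estimate. Filled symbols have an adjusted p under 0.05. MT1E, MT1X and MT2A are left of 0 and filled for Poria in the left panel, and MT1E and MT1X are filled for both extracts in the right panel.

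The summed metallothionein level was 569, 489 and 487 CPM in the vehicle libraries (515 ± 47.1, SD, n = 3), 426, 358 and 334 CPM at 20, 100 and 500 µg/mL Poria, and 531, 411 and 365 CPM at 20, 100 and 500 µg/mL Atractylodis. As a fold of the vehicle mean these were 0.826, 0.695 and 0.648 for Poria and 1.03, 0.798 and 0.709 for Atractylodis. Every treated library except the low Atractylodis dose was below the lowest vehicle library. The slope of the summed level was -0.24 per step for Poria and -0.16 for Atractylodis. The members did not move by the same factor. MT1E was 5.15%, 5.46% and 4.90% of the MT2A counts in the vehicle libraries, 5.67%, 4.88% and 3.05% at 20, 100 and 500 µg/mL Poria, and 5.64%, 5.86% and 4.65% at 20, 100 and 500 µg/mL Atractylodis. The top Poria dose was the lowest of the 9 libraries in this share.

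**Figure D4:**
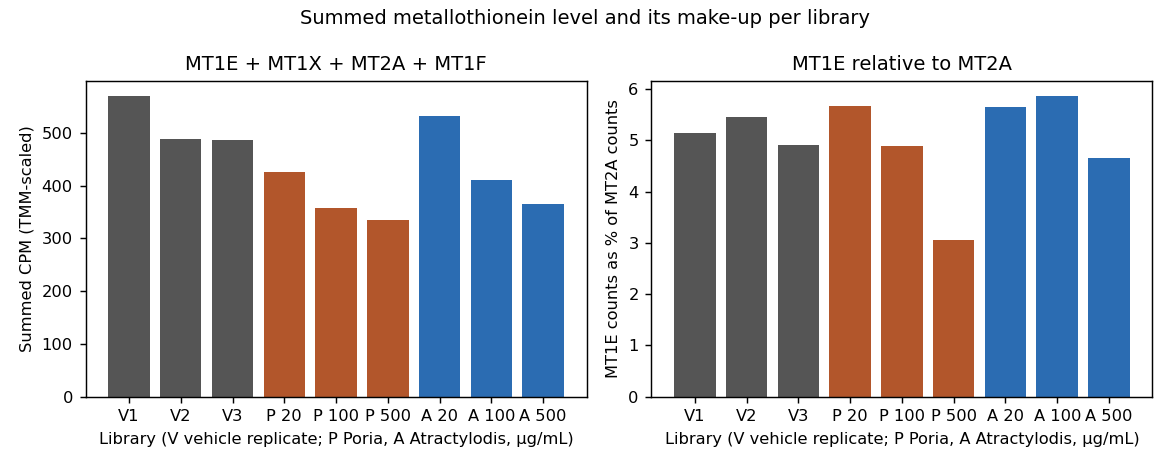
Summed CPM of MT1E, MT1X, MT2A and MT1F (left) and MT1E counts as a percentage of MT2A counts (right) in each library, with bars from 0 for the vehicle replicates (V), Poria (P) and Atractylodis (A) doses in µg/mL. The sum is lowest at 500 µg/mL Poria (334 CPM), where MT1E is 3.05% of MT2A against 4.90% to 5.46% in the vehicle libraries.

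To see whether dose mattered among treated cells alone, the slope was fitted with an offset for each extract, so that vehicle cells set no slope. The fit still held all 9 libraries, and part of its 4 residual degrees of freedom came from the vehicle libraries, whose spread may be technical. MT1E and MT1X fell with dose for both extracts, and no member rose. For Poria the slope was -0.59 ± 0.065 for MT1E (adjusted p = 0.00035) and -0.34 ± 0.051 for MT1X (adjusted p = 0.00057) by edgeR. For Atractylodis it was -0.40 ± 0.061 for MT1E (adjusted p = 0.0025) and -0.24 ± 0.047 for MT1X (adjusted p = 0.0046). MT2A had slopes of -0.15 for Poria (adjusted p = 0.39) and -0.27 for Atractylodis (adjusted p = 0.12), not called by edgeR. With library totals alone the calls over all genes were 384 higher and 132 lower for Poria, beside 234 and 241, and 361 and 364 for Atractylodis, beside 301 and 503. The calls of MT1E and MT1X stand against a background of 1.39% of all genes lower and 1.35% higher for Poria (2.73% in either direction), and of 2.89% lower and 1.73% higher for Atractylodis (4.62% in either direction). All these calls were lost without the 500 µg/mL library of the extract. Without its 20 µg/mL library all but that of MT1E with Poria were lost. Without the 500 µg/mL library the Poria slopes were -0.45 for MT1E (adjusted p = 0.36) and -0.33 for MT1X (adjusted p = 0.54), and without the 20 µg/mL library that of MT1X was -0.35 (adjusted p = 0.16). Without the 20 µg/mL library the Atractylodis slopes were -0.49 for MT1E (adjusted p = 0.23) and -0.12 for MT1X (adjusted p = 0.76), and without the 500 µg/mL library they were -0.32 (adjusted p = 0.26) and -0.35 (adjusted p = 0.059).

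Single doses were then set against vehicle in a fit of 7 groups, where a dose with 1 library borrows the spread of the vehicle replicates. At 500 µg/mL Poria, MT1E was at 0.391 of its vehicle level (log2 change -1.35 ± 0.118, adjusted p = 3.5e-05 by edgeR) and MT1X at 0.574 (adjusted p = 8.4e-09). At 100 µg/mL Poria the log2 changes were -0.61 for MT1E (adjusted p = 0.0035) and -0.45 for MT1X (adjusted p = 5.4e-05). Over the alternative fits, the MT1E call at this dose held in 14 of 14 and that of MT1X in 13 of 14. At 20 µg/mL Poria 0 of 6 genes were called by edgeR, 0 had an unadjusted p under 0.05, and DESeq2 called 0. In the same fit 18.2% of all genes were called lower at 500 µg/mL Poria, 15.2% at 100 µg/mL and 12.3% at 20 µg/mL, where 9.12% were called higher (33.6%, 27.5% and 21.5% in either direction). With library totals alone the genes called at 500 µg/mL Poria were 4512 higher and 1847 lower, beside 2691 and 3161, those at 100 µg/mL 3879 and 1494, beside 2124 and 2652, and those at 20 µg/mL 2451 and 1371, beside 1587 and 2148.

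At 500 µg/mL Atractylodis, MT1E was at 0.634 of its vehicle level (log2 change -0.66, adjusted p = 0.0019 by edgeR), MT1X had a log2 change of -0.20 (adjusted p = 0.037) and SLC30A1 one of 0.14 (adjusted p = 0.011). MT1X was not called without vehicle replicate 1 (-0.15, adjusted p = 0.15). With the GC and length correction MT1X was at -0.14 (adjusted p = 0.17) and SLC30A1 at 0.021 (adjusted p = 0.74). At the low dose the called genes were higher. At 20 µg/mL Atractylodis 3 genes were called higher: MT1X by a log2 change of 0.27 (adjusted p = 0.0067), MT1F by 0.91 (adjusted p = 0.042) on 48 counts against 24, 23 and 23 in the vehicle libraries, and SLC30A1 by 0.13 (adjusted p = 0.026). DESeq2 called 0 of the 3 at 20 µg/mL and 0 of 6 genes at 100 µg/mL, where SLC30A1 was at 0.18 with an adjusted p of 0.35. At 500 µg/mL Atractylodis DESeq2 called MT1E (adjusted p = 0.0037) and MT2A, but neither MT1X (adjusted p = 0.75) nor SLC30A1 (adjusted p = 0.52). In edgeR's fit MT1F at 20 µg/mL had an adjusted p of 0.051 to 0.08 whenever 1 vehicle library was left out. SLC30A1 was not called without vehicle replicate 1 (0.12, adjusted p = 0.11) or vehicle replicate 3 (0.12, adjusted p = 0.07), nor with the GC and length correction (0.083, adjusted p = 0.14). At 100 µg/mL Atractylodis only SLC30A1 was called, by a log2 change of 0.18 (adjusted p = 0.0018), with 0.049 (adjusted p = 0.43) after the GC and length correction. Of all genes, 17.7% were called lower and 15.6% higher at 500 µg/mL Atractylodis, and the share called higher was 12.3% at 100 µg/mL and 8.14% at 20 µg/mL (33.2%, 27.3% and 18.9% in either direction). With library totals alone the genes called at 500 µg/mL Atractylodis were 4363 higher and 1889 lower, beside 2706 and 3074, those at 100 µg/mL 3233 and 1726, beside 2145 and 2602, and those at 20 µg/mL 2740 and 1015, beside 1416 and 1871.

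MT2A was not called at any dose in that fit. Its log2 change was -0.59 at 500 µg/mL Poria (adjusted p = 0.10) and -0.50 at 500 µg/mL Atractylodis (adjusted p = 0.14 by edgeR). Vehicle replicate 1 stood at 521 CPM and the other vehicle libraries at 446 CPM. Without vehicle replicate 1 the log2 changes were -0.51 (adjusted p = 1.1e-24) and -0.42 (adjusted p = 4.3e-17), which rest on the closeness of 2 vehicle libraries. DESeq2 called both, with adjusted p-values of 0.0027 and 0.014.

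When all 6 treated libraries were set against the 3 vehicle libraries, edgeR called 0 of the 6 genes, where 12.9% of all genes were called higher and 14.2% lower (27.1% in either direction). These were 2243 higher and 2472 lower genes, and 4013 and 1403 with library totals alone. Of the 6, 2 had an unadjusted p under 0.05, and DESeq2 called 0. MT2A had a log2 change of -0.36 ± 0.14 (unadjusted p = 0.037, adjusted p = 0.10) and MTF1 one of -0.095 ± 0.045 (adjusted p = 0.13). Without the 20 µg/mL Atractylodis library MT2A was called, at -0.45 (adjusted p = 0.0032).

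The extracts were compared directly at each dose and in slope. The slope of MT1X was lower for Poria than for Atractylodis by 0.21 ± 0.043 on the log2 scale (a difference of -0.21, adjusted p = 0.029 by edgeR), 1 of 6 genes called where 0.707% of all genes were called lower and 0.517% higher (1.22% in either direction). The slope differences of MT1E (-0.23, 95% interval -0.41 to -0.06, adjusted p = 0.23) and of MT2A (-0.067, 95% interval -0.15 to 0.02, adjusted p = 0.49) were not called, and that of SLC30A1 was -0.069 (95% interval -0.11 to -0.03, adjusted p = 0.11). The MT1X difference was lost with library totals alone (-0.21, adjusted p = 0.056) and without any 1 of the 4 libraries at 100 or 500 µg/mL (-0.18 to -0.26, with adjusted p-values of 0.062 to 0.53).

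At 500 µg/mL, 3 genes were called lower in Poria than in Atractylodis cells, against 6.27% of all genes called lower (12.3% in either direction). MT1E was at 9.54 CPM in Poria and 15.5 CPM in Atractylodis cells (log2 difference -0.70, adjusted p = 0.02), MT1X at 11.0 and 16.7 CPM (-0.60, adjusted p = 8.7e-05) and SLC30A1 at 70.4 and 79.3 CPM (-0.17, adjusted p = 0.027 by edgeR). DESeq2 called 0 of these. At 20 µg/mL MT1X was called, at 17.6 CPM in Poria and 23.0 CPM in Atractylodis cells (log2 difference -0.39, adjusted p = 0.017), where 0.879% of all genes were called lower and 0.483% higher (1.36% in either direction), and with the GC and length correction it was -0.33 (adjusted p = 0.057). At 100 µg/mL edgeR called 0 of 6 genes and DESeq2 0, with 4 at an unadjusted p under 0.05, where 0.31% of all genes were called. Each value here sets 1 library against 1 library. With the extracts paired by dose and the dose as a block, a fit of the 6 treated libraries with 2 residual degrees of freedom that was chosen after seeing the data, MT1E was lower in Poria than in Atractylodis cells by a mean log2 difference of -0.47 ± 0.073 (SE, 3 pairs; adjusted p = 0.017 by edgeR) and MT1X by one of -0.45 ± 0.069 (adjusted p = 0.011). Both were lower in Poria cells in 3 of 3 pairs. These were 2 of 6 genes, where 0.0345% of all genes were called lower and 0.023% higher (0.0575% in either direction). MT2A (-0.19, adjusted p = 0.21) and SLC30A1 (-0.14, adjusted p = 0.33) were not called. Without the pair at 100 µg/mL neither MT1E (-0.49, adjusted p = 0.22) nor MT1X (-0.49, adjusted p = 0.15) was called, and without the pair at 500 µg/mL MT2A was called too (-0.25, adjusted p = 0.0044). With library totals alone the calls over all genes were 97 higher and 80 lower for the slopes, beside 90 and 123, 64 and 212 at 20 µg/mL, beside 84 and 153, and 44 and 18 at 100 µg/mL, beside 31 and 23.

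Of the rest of the metallothionein family, MT1A alone passed the filter on low counts, at 0.153 to 0.368 CPM, and MT1B, MT1H, MT1HL1 and MT4 had 0 counts in all libraries. Of 9 metallothionein pseudogenes MT1L alone passed it, at 1.09 to 1.71 CPM. Neither slope of either gene was called.

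Of 10 zinc exporter genes of the ZnT list 6 were tested, and 1 was called higher with Poria dose and 1 with Atractylodis dose, with median slopes of 0.009 and 0.012. Both shares are near those over all genes, 22.4% for Poria and 20.5% for Atractylodis in either direction. The gene was SLC30A5, a transporter of the secretory pathway, at 97.7 ± 1.45 CPM in vehicle cells (SD, n = 3), 104, 105 and 108 CPM at 20, 100 and 500 µg/mL Poria, and 99.9, 108 and 115 CPM at 20, 100 and 500 µg/mL Atractylodis. Its slope was 0.051 ± 0.016 for Poria (adjusted p = 0.025) and 0.074 ± 0.016 for Atractylodis (adjusted p = 0.0037), and with the GC and length correction 0.019 (adjusted p = 0.40) and 0.040 (adjusted p = 0.069). The Poria call was lost without vehicle replicate 1, vehicle replicate 2, or the Poria library at 100 or 500 µg/mL (adjusted p-values of 0.059 to 0.11), and the Atractylodis call without its 500 µg/mL library (0.062, adjusted p = 0.14).

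Of 14 importer genes of the ZIP list 11 were tested. With Poria dose 3 were lower and 0 higher (median slope 0.005), and with Atractylodis dose 1 was lower and 1 higher (median 0.003), beside the same 22.4% and 20.5% over all genes. SLC39A14, an importer of zinc and manganese at the plasma membrane, was at 192 ± 3.56 CPM in vehicle cells (SD, n = 3) and at 170, 156 and 143 CPM over the rising Poria doses. All 3 Poria libraries were below the vehicle libraries and went down in the order of dose, with a slope of -0.14 ± 0.019 (adjusted p = 0.00017 by edgeR). Over the rising Atractylodis doses it was at 174, 175 and 186 CPM, with a slope of -0.027 (adjusted p = 0.33), and the difference of the slopes was -0.11 (adjusted p = 0.015). That difference was lost without Poria 500 µg/mL (-0.11, adjusted p = 0.37) and without Atractylodis 500 µg/mL (-0.067, adjusted p = 0.57). SLC39A3, a plasma membrane importer, was lower with both extracts, with slopes of -0.11 ± 0.025 for Poria (adjusted p = 0.005) and -0.089 ± 0.025 for Atractylodis (adjusted p = 0.019). SLC39A13, a zinc transporter of intracellular vesicles, was lower with Poria (-0.068 ± 0.019, adjusted p = 0.015) and SLC39A11 higher with Atractylodis (0.10 ± 0.027, adjusted p = 0.014). Without the 500 µg/mL library of the extract the slopes were -0.061 for SLC39A3 with Atractylodis (adjusted p = 0.37), -0.066 for SLC39A13 (adjusted p = 0.14) and 0.060 for SLC39A11 (adjusted p = 0.42). The Atractylodis call of SLC39A3 was also lost without vehicle replicate 1 (adjusted p = 0.065) or vehicle replicate 3 (adjusted p = 0.06), and that of SLC39A11 without vehicle replicate 1 (adjusted p = 0.05).

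Metallothioneins also bind copper, so 12 genes of copper handling were examined, all of them tested. With Poria dose 1 was higher and 1 lower (median slope 0.007), and with Atractylodis dose 3 were higher and 1 lower (median 0.009). Of all genes tested, 22.4% were called in either direction with Poria dose and 20.5% with Atractylodis dose. ATP7A, the copper-exporting ATPase, was at 53.7 ± 2.17 CPM in vehicle cells (SD, n = 3), 63.5, 63.8 and 67.1 CPM at 20, 100 and 500 µg/mL Poria, and 62.9, 68.6 and 75.7 CPM at 20, 100 and 500 µg/mL Atractylodis. All 6 treated libraries were above the vehicle libraries, with slopes of 0.11 ± 0.020 for Poria (adjusted p = 0.0013) and 0.16 ± 0.020 for Atractylodis (adjusted p = 0.00018 by edgeR). ATOX1, the chaperone that delivers copper to it, was lower with both, with slopes of -0.13 ± 0.028 (adjusted p = 0.0055) for Poria and -0.10 ± 0.028 (adjusted p = 0.022) for Atractylodis. CCS, the copper chaperone of superoxide dismutase, and SOD1 itself were higher with Atractylodis dose, by 0.12 ± 0.037 (adjusted p = 0.026) and 0.069 ± 0.020 (adjusted p = 0.024) per step. These weaker calls depended on single libraries. Without the 500 µg/mL library the adjusted p was 0.058 for ATOX1 with Poria, and 0.31 for SOD1 and 0.19 for CCS with Atractylodis. The Atractylodis calls of ATOX1 and CCS were lost without any 1 of the vehicle libraries (adjusted p-values of 0.051 to 0.091), that of SOD1 without vehicle replicate 1 or 3 (0.069 and 0.09), and that of ATOX1 also without the 100 µg/mL library (0.077).

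In the metal and oxidant stress list nearly all called genes were higher with dose. Of 12 genes 11 were tested, with 5 higher and 1 lower with Poria dose (median slope 0.09) and 7 higher and 0 lower with Atractylodis dose (median 0.09). Over all genes tested, 9.96% were called higher and 12.4% lower with Poria dose, and 9.17% and 11.3% with Atractylodis dose. NQO1, a quinone reductase, was at 130 ± 0.722 CPM in vehicle cells (SD, n = 3), 150, 190 and 247 CPM at 20, 100 and 500 µg/mL Poria, and 165, 173 and 237 CPM at 20, 100 and 500 µg/mL Atractylodis. Its slopes were 0.30 ± 0.021 for Poria (adjusted p = 8.7e-07) and 0.28 ± 0.021 for Atractylodis (adjusted p = 3.2e-06 by edgeR). SLC7A11, the cystine importer, had slopes of 0.31 ± 0.030 (adjusted p = 0.00012) for Poria and 0.36 ± 0.030 (adjusted p = 1e-04) for Atractylodis. TXNRD1 and GCLM, of the thioredoxin and glutathione systems, were called higher with both extracts, as was the chaperone gene HSPH1. The Atractylodis slope of TXNRD1 was 0.096 (adjusted p = 0.045 by edgeR), with log2 changes from vehicle of 0.026, 0.033 and 0.302 over the rising doses. Without the 500 µg/mL Atractylodis library GCLM had a slope of 0.076 (adjusted p = 0.19) and HSPH1 one of 0.057 (adjusted p = 0.20), and HSPH1 was also not called without any 1 vehicle library or the 100 µg/mL library (adjusted p-values of 0.064 to 0.12). DNAJB1, a co-chaperone of HSP70, was the gene called lower with Poria dose (-0.053, adjusted p = 0.041) and was named after its value was seen. HMOX1, which breaks down heme and is induced by metals and oxidants, was at 86.8, 85.8 and 87.6 CPM in the vehicle libraries, 68.7, 73.6 and 105 CPM at 20, 100 and 500 µg/mL Poria, and 77.1, 85.6 and 202 CPM at 20, 100 and 500 µg/mL Atractylodis. It was below all vehicle libraries at 20 and 100 µg/mL of both extracts and above them at 500 µg/mL. Its trends were not called (adjusted p = 0.64 for Poria and 0.072 for Atractylodis), and its log2 changes at 500 µg/mL were 0.28 for Poria (adjusted p = 1.8e-06) and 1.22 for Atractylodis (adjusted p = 8.1e-20 by edgeR). The HSP70 genes HSPA1A and HSPA1B were not called in either trend.

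Of the 9 genes of the glucocorticoid list 8 were tested, with 6 higher and 1 lower for Poria (median slope 0.07) and 4 higher and 1 lower for Atractylodis (median 0.05). The higher genes include NR3C1, the gene of the receptor itself, with slopes of 0.053 for Poria and 0.046 for Atractylodis. The shares over all genes were 9.96% higher and 12.4% lower for Poria, and 9.17% higher and 11.3% lower for Atractylodis. SGK1, a kinase induced by glucocorticoids, had slopes of 0.15 ± 0.018 (adjusted p = 6.4e-05) for Poria and 0.093 ± 0.019 (adjusted p = 0.0027) for Atractylodis by edgeR. PER1, a clock gene with glucocorticoid response elements, was the gene called lower with each extract, with a slope of -0.13 ± 0.028 for Atractylodis (adjusted p = 0.0042). FKBP5, a classic target of the receptor, was tested and not called in either trend, and ZBTB16 was at 0 counts in all libraries. With each library left out in turn, the Poria call held in 9 of 9 fits for SGK1, 8 of 9 for DUSP1 and KLF9, and 6 of 9 for ERRFI1. The Atractylodis call held in 9 of 9 fits for SGK1 and PER1, 8 of 9 for ERRFI1 and 6 of 9 for TSC22D3.

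**Figure D5:**
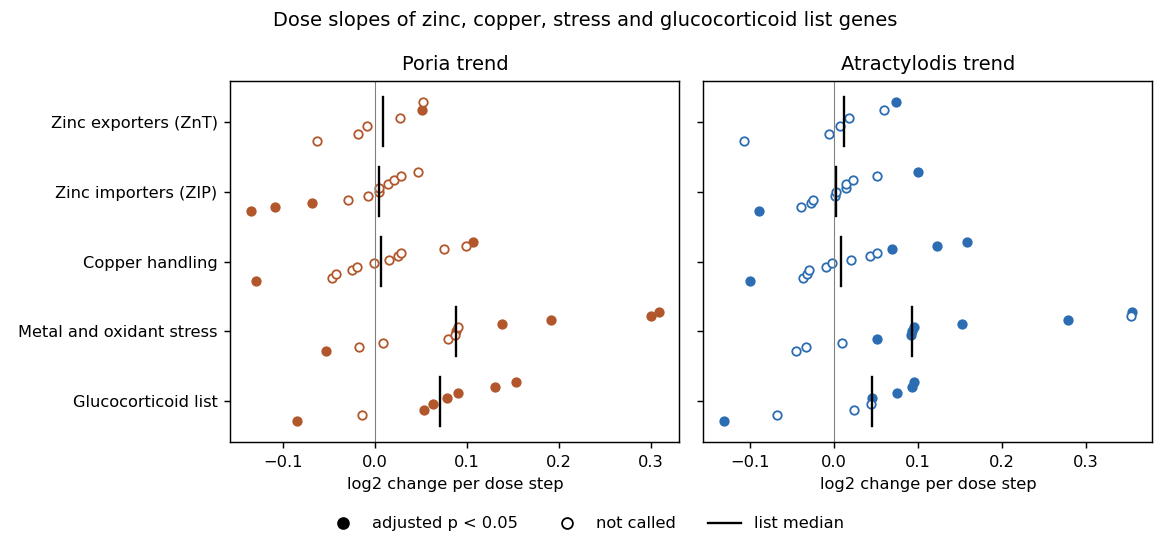
Log2 change per dose step of each tested gene of the zinc exporter, zinc importer, copper, metal and oxidant stress and glucocorticoid lists for Poria (left) and Atractylodis (right); filled points have an adjusted p under 0.05 and black bars are list medians. The medians of the stress list stand at 0.09 in both panels and those of the zinc exporter and importer lists between 0.003 and 0.012.

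Markers of other cell kinds also moved with treatment. Their counts stand beside 12.4% of all genes called lower and 9.96% higher with Poria dose, and 11.3% and 9.17% with Atractylodis dose. The 6 mesenchymal genes summed to 15470 to 16820 CPM in Poria and 15770 to 16980 CPM in Atractylodis cells, against 18000 to 18440 CPM in vehicle cells, with 4 of 6 called lower with Poria dose and 3 of 6 with Atractylodis dose. With each library left out in turn, FN1 with Poria was called in only 3 of 9 fits and VIM in 6 of 9. With Atractylodis dose COL1A1 and VIM were each called in 8 of 9 such fits. COL1A2 was not called in either trend, with log2 changes from vehicle of 0.099, 0.067 and -0.033 over the rising Poria doses. Over the rising Atractylodis doses they were 0.145, 0.149 and 0.115. The 8 astrocyte markers summed to 293.5 to 331 CPM in Poria and 332 to 346 CPM in Atractylodis cells, against 357 to 366 CPM in vehicle cells, of which GFAP, AQP4 and ALDH1L1 were near 0. Of the 4 tested, SLC1A3, a glutamate transporter, was called higher with Poria dose (0.085 per step, adjusted p = 0.026) and with Atractylodis dose (0.11, adjusted p = 0.0066). SOX9, a transcription factor of the astrocyte lineage, was called lower with both (-0.16, adjusted p = 6.4e-05, and -0.11, adjusted p = 0.00083, by edgeR), and GJA1, a gap junction gene, was called lower with Poria dose (-0.084, adjusted p = 0.0037).

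The 4 epithelial markers summed to 192 to 217 CPM in Poria and 127 to 230 CPM in Atractylodis cells, against 239 to 246 CPM in vehicle cells, with CDH1 and EPCAM near 0. Of the 2 tested, KRT18 was called lower with both extracts (-0.13 for Poria, adjusted p = 0.0062, and -0.29 for Atractylodis, adjusted p = 2e-04) and KRT8 with Atractylodis dose (-0.14, adjusted p = 0.0026). KRT18, a keratin gene, was at 114 CPM at 500 µg/mL Atractylodis and 223 ± 3.56 CPM in vehicle cells (SD, n = 3), a log2 change of -0.97 (adjusted p = 2e-16 by edgeR). The 5 myeloid markers summed to 133 to 164 CPM in Poria and 158 to 162 CPM in Atractylodis cells, against 175 to 183 CPM in vehicle cells, and of 4 tested CD68, a lysosomal gene, was called lower with Poria dose (-0.15, adjusted p = 9e-05) and with Atractylodis dose (-0.068, adjusted p = 0.017). The 4 endothelial markers summed to 32.8 to 39.99 CPM in Poria and 32.1 to 34.8 CPM in Atractylodis cells, against 28.9 to 30.9 CPM in vehicle cells, with CDH5 at 0, and of 2 tested KDR, a VEGF receptor, was called higher with both (0.13, adjusted p = 0.00037, and 0.07, adjusted p = 0.025). The 5 neuronal markers summed to 154 to 170 CPM in Poria and 178 to 186 CPM in Atractylodis cells, against 172 to 175 CPM in vehicle cells, and of 4 tested TUBB3, a tubulin gene, was called lower with Poria dose (-0.057, adjusted p = 0.024) and 0 with Atractylodis dose. With 1 library left out, the calls of SLC1A3 with Poria (without any 1 vehicle library or Poria 100 µg/mL, adjusted p-values of 0.066 to 0.093), GJA1 and KRT18 with Poria (without Poria 500 µg/mL, 0.098 and 0.096), KRT8 with Atractylodis (without Atractylodis 500 µg/mL, 0.21), CD68 with Atractylodis (without vehicle replicate 1 or Atractylodis 100 µg/mL, 0.068 and 0.069), KDR with Atractylodis (without vehicle replicate 1 or 2 or Atractylodis 500 µg/mL, 0.072 to 0.31) and TUBB3 (without vehicle replicate 1 or Poria 500 µg/mL, 0.059 and 0.13) were lost. Some other tested markers had no trend call but rose at single doses, each with 1 library. PTPRC, of the myeloid list, had log2 changes from vehicle of 0.385, 0.29 and -0.081 over the rising Poria doses. Over the rising Atractylodis doses they were 0.304, 0.356 and -0.291. SNAP25, of the neuronal list, had log2 changes of 0.228, 0.251 and -0.121 for Poria and 0.303, 0.29 and 0.117 for Atractylodis. The part of these markers in the metallothionein levels was not tested.

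To find the genes whose pattern over the 9 libraries was most like that of the summed metallothionein level, the Pearson correlation of log2 CPM was computed. It covered the 11563 tested genes whose mean log2 CPM was 2 or more, list genes included. All points share the same 9 libraries, and the 90th percentile over all these genes was 0.797. The 8 highest outside the lists were PINX1 (r = 0.991), VKORC1 (0.980), RPS27 (0.973), TAX1BP3 (0.973), ARMC6 (0.972), SLC25A10 (0.970), MLST8 (0.970) and MED22 (0.967). Of all 11563 genes, 248 reached 0.9 or more. Among the 6 genes themselves, MT2A stood at 0.998 with the sum it dominates, MT1E at 0.895, MT1X at 0.872, MTF1 at 0.383 and SLC30A1 at -0.015.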

How the data were processed

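RNA of 9 SW1783 libraries was measured by RNA-seq. The deposited table holds expected counts from RSEM, which the authors made, per the submitters' processing notes, with FastQC 0.11.9, Trim Galore 0.6.5, STAR 2.7.3a and RSEM 1.3.3 on hg38. No annotation release is named in the sources used. Per the labels' protocols the libraries were strand-specific. Expected counts were rounded to whole numbers. The table has 279 columns, of which 270 belong to other samples and were not used here. Symbols came from a reference list of gene names and, where it had none, from GENCODE 29, which also gave the positions. Of the 60675 genes, 57055 had a symbol.

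Tests used edgeR 4.0.16 in R 4.3.3 (TMM scaling, filterByExpr with a count minimum of 10 and a total of 15, robust quasi-likelihood fits, Benjamini-Hochberg adjustment), with 17397 genes tested and 43278 not. The dose trend had 6 residual degrees of freedom, treated against vehicle 7, the slopes within treated cells 4 and the fit of 7 groups 2. SE is the log2 change over the square root of F. CPM values are TMM-scaled, with a prior count of 2 on the log2 scale. Alternatives included DESeq2 1.42.0 (without its independent filtering), other scalings and filters, a spline correction for GC content and length, the dose itself, and leaving out each library. The extracts paired by dose were added after seeing the data. The fits were tested on simulated data. Named genes were the 6 genes, list genes called in a trend or chosen from the fixed lists, and the 8 genes outside the lists most like the summed metallothionein level. The genes and lists were chosen with earlier results of these data known.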

Additional observations from a re-analysis of the deposited data

Results flagged for a closer look

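Several values differed between the extracts by a direct test in edgeR's quasi-likelihood fits. The slope over dose was lower for Poria than for Atractylodis for MT1X (difference -0.211, adjusted p = 0.029) and for the zinc importer gene SLC39A14 (difference -0.108, adjusted p = 0.015). At 500 µg/mL, Poria libraries were below Atractylodis libraries for MT1E (log2 difference -0.696, adjusted p = 0.02), MT1X (-0.599, adjusted p = 8.7e-05) and SLC30A1 (-0.172, adjusted p = 0.027). At 20 µg/mL the same held for MT1X (-0.389, adjusted p = 0.017). Each single-dose value compares 1 library with 1 library and takes its spread from the vehicle libraries.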

How the results depend on the processing

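No result of the 6 genes that passed the threshold turned its direction. Among values of single genes outside the fits paired by dose, 1856 kept their side of the threshold, 180 lost a call and 57 gained one. With Poria dose 3 genes were called, and 2 to 3 with each library left out. With Atractylodis dose 2 were called, 0 over the dose itself, 1 with the GC and length correction, and 0 to 3 with each library left out. For the difference of the slopes 1 was called, 0 with library totals alone, 0 over the dose itself and 0 to 1 with each library left out. For treated against vehicle 0 were called, 1 with library totals alone (SLC30A1), 1 with the GC and length correction (MTF1) and 0 to 1 with each library left out. For the slope within Poria cells 2 were called, 1 over the dose itself and 0 to 3 with each library left out, and within Atractylodis cells 2, 0 over the dose itself and 0 to 3 with each library left out. At 500 µg/mL Atractylodis 3 were called and 1 with the GC and length correction, and between the extracts at 500 µg/mL 3 were called by edgeR and 0 by DESeq2. Over all genes DESeq2 called fewer in the single-dose comparisons, 1343 against 5852 at 500 µg/mL Poria, 1480 against 5780 at 500 µg/mL Atractylodis and 197 against 2134 between the extracts at 500 µg/mL, and the dose itself gave 126 against 3891 for Poria and 64 against 3569 for Atractylodis; the cause was not tested. The slope difference was called for 213 genes, and for 0 without either library at 500 µg/mL. The summed metallothionein level with all MT1 and MT2A rows, or with library totals alone, moved by less than the spread of the vehicle libraries. No paired analysis was possible by replicate number because the treated libraries share only replicate number 2 with 1 vehicle library. With the extracts paired by dose, a fit chosen after seeing the data, 2 genes were called between them, and 0 to 3 with each pair left out. Depth limits MT1F, with 20 to 48 counts per library, while each treated dose rests on 1 library.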
